A study of Homo sapiens with 10 samples.

Results

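The alanine tRNA rows were the entries of the deposited tRNA tables whose name begins with the isotype Ala, 51 of 631 rows in each table. They comprised 35 rows with the anticodon AGC, 10 with TGC, 5 with CGC and 1 with ATC, and they were taken by name alone, without use of any measured value. Rows with an nm or nmt prefix were not included. In a row name such as Ala-TGC-3-2 the first number stands for a mature sequence and the second for a gene copy of that sequence, while names with chr6 carry a running number along that chromosome.

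Alanine tRNAs carry alanine to the ribosome, and alanyl-tRNA synthetase recognises them through a G:U wobble pair in the acceptor stem. The adenosine that opens the AGC anticodon is normally deaminated to inosine, which lets one tRNA read several alanine codons. The CGC and TGC anticodons also read alanine codons. Fragments from the 5′ side of alanine tRNAs, which begin with a run of guanosines, are known inhibitors of translation. PUS7 is a pseudouridine synthase, an enzyme that turns uridine into pseudouridine in tRNA and other RNAs.

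Binding of PUS7 to RNA was recorded by iCLIP, in which UV light crosslinks a protein to the RNA it touches in living cells before the protein is pulled down. In HEK 293T, an embryonic kidney cell line, 3 libraries came from PUS7 knockout cells given FLAG-tagged PUS7 and 3 from PUS7 knockout cells without it. In H9, a human embryonic stem cell line, each of these groups had 2 libraries. All groups therefore shared the PUS7 knockout, all were pulled down with anti-FLAG beads, and the knockout libraries stand for what comes down without a tagged protein. Whether the replicates were grown apart, how many clones each line had and how strongly FLAG-PUS7 was expressed are not stated, so a p-value here covers no more than the scatter among the samples at hand, which may be technical.

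The values in the tRNA tables are level numbers and not counts of reads, and they follow the alphabetical order of the original text and not its size. A row could therefore be read only as detected or not detected, and sequencing depth is unknown. Text width sorted the rows into classes that run from the narrowest, class 1, upwards, with 31 alanine rows in class 1, 9 in class 2, 10 in class 3 and 1 in class 4. The class comes from the same tables and is not independent of detection: rows of wider classes were detected more often in both genotypes. Over all 631 rows, 458 to 479 were detected in the FLAG-PUS7 libraries, against 133 to 232 in the knockout libraries other than H9 knockout replicate 1. The levels of that library, 6 in all, were used to define the text classes, so its 0 detected rows follow from the decoding. Whether it was empty or faultily exported is not known. It is called empty below, and differences between the genotypes are also given without it. More RNA bound to PUS7 and more RNA present in the cells cannot be told apart, since no input library was analysed here. The tables hold tRNA rows alone, so the identity of the cells was not checked against marker genes.

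Alanine tRNAs came down broadly with FLAG-PUS7 and sparsely without it. In 293T, 41, 38 and 35 of the 51 rows were detected in the FLAG-PUS7 libraries, against 11, 3 and 0 in the knockout libraries. In H9, 41 and 39 rows were detected with FLAG-PUS7, against 0 and 2 in the knockout. The groups did not overlap in either line, which also held for the 580 other rows. In shares, 74.5% ± 5.88 of the alanine rows were detected in 293T FLAG-PUS7 libraries and 9.15% ± 11.1 in 293T knockout libraries (SD, n = 3 each), and the H9 values were 80.4% and 76.5% with FLAG-PUS7 and 0% and 3.92% in the knockout. The 580 other rows, those with an nm or nmt prefix included, reached 74.3% ± 1.22 with FLAG-PUS7 in 293T (SD, n = 3). They were detected more often than alanine rows in the 293T knockout, at 28.2% ± 8.61 (SD, n = 3), and in H9 knockout replicate 2, at 39.7%. Without the prefixed rows, the 539 others reached 80.9%, 79.8% and 77.9% with FLAG-PUS7 in 293T and 80.1% and 80.0% in H9. The alanine shares were lower than these in every FLAG-PUS7 library but H9 replicate 1. In the knockout the 539 rows reached 41.0%, 25.0% and 24.5% in 293T and 42.7% in H9 replicate 2. With both lines weighted equally the share of alanine rows was 70.9 percentage points higher with FLAG-PUS7, against 50.7 points for all other rows. Without the empty H9 knockout replicate 1 these differences were 69.9 and 40.8 points. The median single alanine row differed by 75 points, against 58.3 points over all 631 rows, and without that library the medians were 75 and 33.3 points. These contrasts were not matched for text class: 31 of the 51 alanine rows were of class 1, against 217 of the 580 other rows. In any knockout library, no alanine row of class 1 and at most 1.38% of the other class 1 rows were detected.

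**Figure D1:**
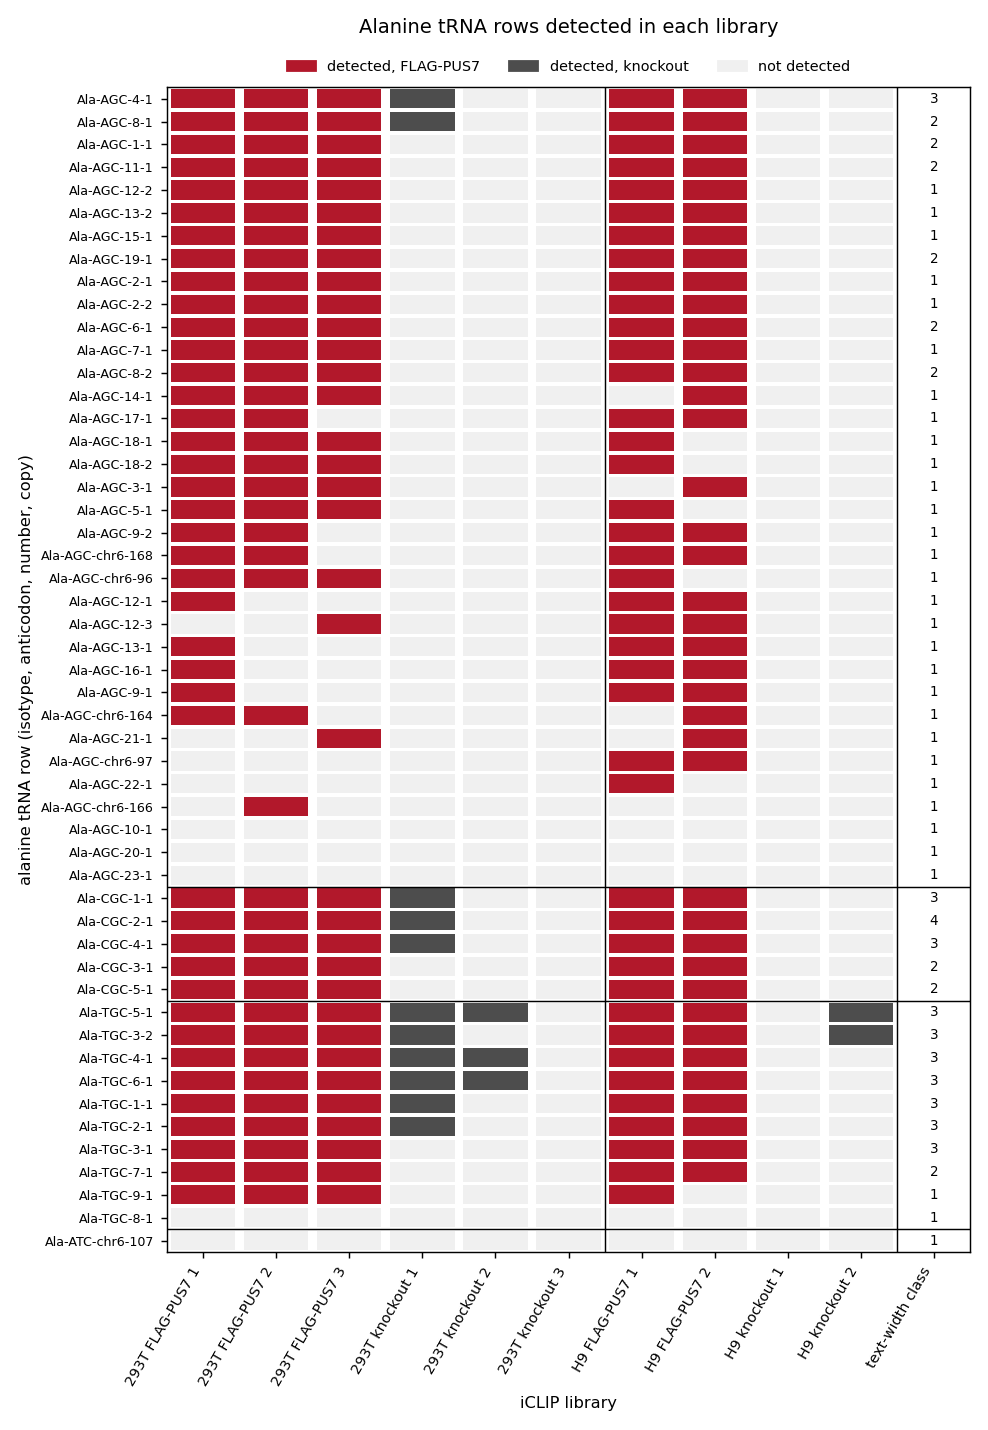
Detection of each of the 51 alanine tRNA rows (down the page, by anticodon) in each of the 10 iCLIP libraries (across), with filled cells for detected rows and the text-width class of the row in the last column. Filled knockout cells occur only in rows that are filled in all 5 FLAG-PUS7 libraries, and 9 of the 11 such rows lie in the CGC and TGC families. These 11 rows are all of class 2 to 4.

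The 3 anticodon families with detected rows differed from the knockout in the same direction. All 5 Ala-CGC rows were detected in each of the 5 FLAG-PUS7 libraries, against 3, 0 and 0 in the 293T knockout libraries and 0 and 0 in the H9 knockout libraries. Of the 35 Ala-AGC rows, 27, 24 and 21 were detected with FLAG-PUS7 in 293T, against 2, 0 and 0 in the knockout. In H9, 27 and 26 Ala-AGC rows were detected with FLAG-PUS7, against 0 and 0 in the knockout. In 293T, Ala-AGC thus had the widest spread of the 3 families among FLAG-PUS7 libraries and almost no row in a knockout library. Of the 10 Ala-TGC rows, 9, 9 and 9 were detected with FLAG-PUS7 in 293T, against 6, 3 and 0 in the knockout, and 9 and 8 with FLAG-PUS7 in H9, against 0 and 2 in the knockout. Ala-TGC was the family with the most rows in knockout libraries, and its FLAG-PUS7 and knockout libraries still did not overlap. The single Ala-ATC row was not detected in any of the 10 libraries and was not tested.

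**Figure D2:**
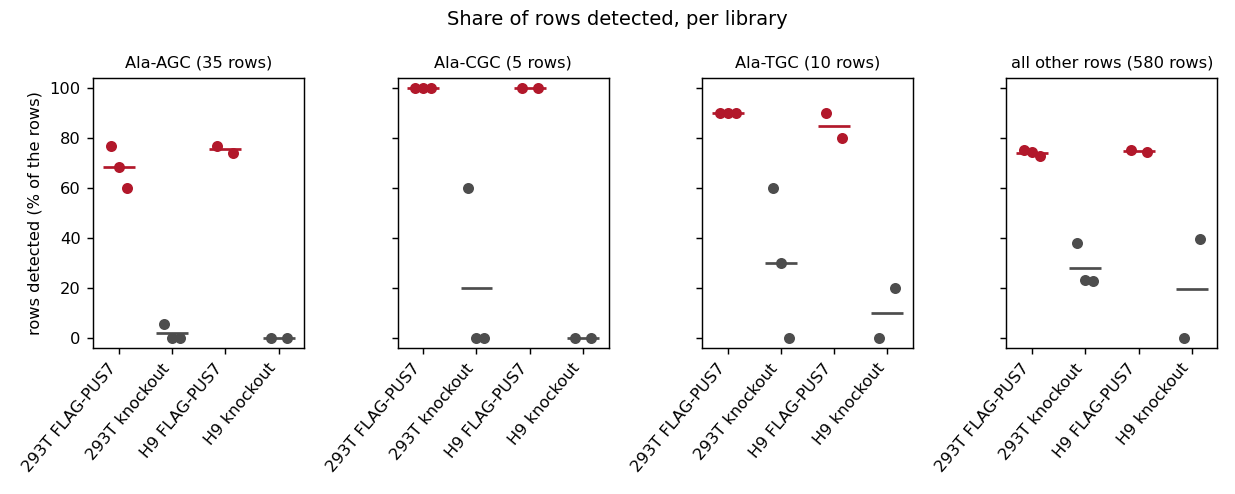
Share of rows detected (percent of the rows of the family) in each library for the 3 alanine families and for all 580 other rows, with a point per library, a line at the mean of each group and red for FLAG-PUS7. The FLAG-PUS7 points lie above the knockout points in every panel, and Ala-AGC reaches at most 5.71% in a knockout library. The panels are not matched for text-width class.

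The share of rows detected was 90 points higher with FLAG-PUS7 than in the knockout for Ala-CGC, 71.2 points for Ala-AGC and 67.5 points for Ala-TGC. Each of the 3 families reached p = 0.0167 in an exact permutation test, two-sided and stratified by cell line, which is the smallest p that its 120 assignments can give. The adjusted p was 0.0221 for each (Benjamini-Hochberg over the 57 families with a detected row). Of those 57 families, 45 (78.9%) passed the same threshold with a higher share in FLAG-PUS7 libraries, so passing it does not set the alanine families apart. The median difference over all 57 families was 52.5 points, and Ala-CGC, Ala-AGC and Ala-TGC ranked 9, 14 and 16 among them. After the share of all other rows of the same library was subtracted, none of the 57 families (0%) passed with a higher share, alanine families included: the difference was 38.0 points for Ala-CGC (exact permutation test, adjusted p = 0.0594), 20.0 points for Ala-AGC (adjusted p = 0.0864) and 15.4 points for Ala-TGC (adjusted p = 0.228). Without the empty H9 knockout replicate 1, the differences were 90, 71.2 and 62.5 points for Ala-CGC, Ala-AGC and Ala-TGC, with an adjusted p of 0.0232 in the exact permutation test for each, and 43 of the 57 families (75.4%) passed. The median over the 57 families was then 41.7 points, and the ranks of Ala-CGC, Ala-AGC and Ala-TGC were 9, 14 and 17. With that library left out and the other rows subtracted, a combination chosen after seeing the data, Ala-CGC (47.3 points) and Ala-AGC (29.7 points) passed, with an adjusted p of 0.038 each in the exact permutation test. Ala-TGC did not pass (19.7 points, adjusted p = 0.158 in the exact permutation test), and 16 of the 57 families (28.1%) passed with a higher share. Whether the subtracted difference passes for Ala-CGC and Ala-AGC thus rests on the empty library.

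The difference had the same direction in both cell lines for each of the 3 families, and no family had a difference between lines that passed the test. In H9 the difference was 100 points for Ala-CGC, 75.7 for Ala-AGC and 75 for Ala-TGC, against 80, 66.7 and 60 points in 293T. The gap, H9 minus 293T, was thus 20, 9.05 and 15 points, with an unadjusted p of 1, 0.32 and 0.7 in an exact permutation test of the line labels within genotype and an adjusted p of 1 each. None of the 57 families (0%) passed that test, and leaving out single libraries moved the gap between 0 and 30 points for Ala-CGC and Ala-TGC. Without H9 knockout replicate 1 the gap was 20, 9.05 and 5 points for Ala-CGC, Ala-AGC and Ala-TGC. A p above the threshold does not show that the lines were alike. Neither line alone can reach 0.05, since the smallest p of the exact permutation test is 0.1 in 293T and 0.333 in H9.

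Single rows showed 4 patterns. Every FLAG-PUS7 library but no knockout library held the 15 alanine rows of a first set. A second set of 11 rows was in every FLAG-PUS7 library and in at least 1 knockout library. The third set, 20 rows, was seen in 1 to 4 of the FLAG-PUS7 libraries and never in the knockout, and 5 rows were detected in none. The first set made up 32.6% of the 46 alanine rows detected anywhere and 57.7% of the 26 rows present in all FLAG-PUS7 libraries. Over the whole table the same pattern held for 25.0% of 513 detected rows and for 30.1% of the 425 rows present in all FLAG-PUS7 libraries. These shares were not matched for text class. For comparison, the share among rows present in all FLAG-PUS7 libraries was 24 of 25 for cysteine and 6 of 31 for valine. No difference between these isotypes was tested. The exact permutation test on single rows called 0 of 46 alanine rows and 0 of 513 rows in all (0%), with a lowest adjusted p of 0.0668. At an unadjusted p under 0.05 it held 15 alanine rows and 128 rows in all, which are the rows of the first set and of the same pattern in the whole table. This match is built in, since only full separation of the genotypes gives such a p in this test. With 128 of 513 rows at the smallest possible p, the adjusted p could not fall below 0.0668, so no row could be called.

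The first set held 11 Ala-AGC rows, namely Ala-AGC-1-1, 2-1, 2-2, 6-1, 7-1, 8-2, 11-1, 12-2, 13-2, 15-1 and 19-1. It also held Ala-CGC-3-1, Ala-CGC-5-1, Ala-TGC-3-1 and Ala-TGC-7-1. Of these 15 rows, 13 matched a RefSeq tRNA gene by symbol and 2 did not.

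The second set held 2 Ala-AGC rows, 3 Ala-CGC rows and 6 Ala-TGC rows. Ala-AGC-4-1, Ala-AGC-8-1, Ala-CGC-1-1, Ala-CGC-2-1, Ala-CGC-4-1, Ala-TGC-1-1 and Ala-TGC-2-1 were each detected in 293T knockout replicate 1 and in no other knockout library. Ala-TGC-4-1 and Ala-TGC-6-1 were detected in 293T knockout replicates 1 and 2. Ala-TGC-3-2 was detected in 293T knockout replicate 1 and in H9 knockout replicate 2. Ala-TGC-5-1 was the alanine row found in most knockout libraries, namely 293T knockout replicates 1 and 2 and H9 knockout replicate 2. All 11 rows were thus present in 293T knockout replicate 1, which alone decides 7 of them: without that library 22 rows in place of 15 had the pattern of the first set. Without H9 knockout replicate 1 the number stayed at 15. All 11 matched a RefSeq tRNA gene, and none was missing from a FLAG-PUS7 library. Among all rows, 301 (47.7%) were detected in a knockout library, against 21.6% of the alanine rows, without matching for text class.

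Of the 16 knockout detections of alanine rows, 8 (50%) were at the level next above the lowest one of their class. Over all rows this held for 217 of 736 knockout detections (29.5%). These pooled shares are not matched by library. By library the share over all rows was 24.1%, 53.2% and 52.6% in the 293T knockout and 7.33% in H9 knockout replicate 2. For alanine it was 6 of 11 in 293T knockout replicate 1, 1 of 3 in replicate 2 and 1 of 2 in H9 knockout replicate 2. The 8 alanine entries were Ala-AGC-4-1, Ala-AGC-8-1, Ala-CGC-1-1, Ala-TGC-1-1, Ala-TGC-2-1 and Ala-TGC-3-2 in 293T knockout replicate 1, Ala-TGC-4-1 in 293T knockout replicate 2 and Ala-TGC-3-2 in H9 knockout replicate 2. Because levels follow text order, the position says nothing certain about the number of reads. Where a row had to lie above the lowest 2 levels of its class to count as detected, 18 alanine rows had the pattern of the first set.

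The 20 rows of the third set were 19 Ala-AGC rows and the pseudogene Ala-TGC-9-1. In 4 of the 5 FLAG-PUS7 libraries were 9 of the Ala-AGC rows, in 3 libraries 6, in 2 libraries 2 and in 1 library 2. Ala-TGC-9-1 was detected in 4 of the 5 and was missing from H9 FLAG-PUS7 replicate 2. The 5 rows detected in none were Ala-AGC-10-1, Ala-AGC-20-1, the pseudogene Ala-AGC-23-1, Ala-TGC-8-1 and the Ala-ATC row. Every Ala-AGC row missing from a FLAG-PUS7 library belonged to the narrowest text class, class 1. This is not particular to Ala-AGC. Outside alanine, 117 of 121 rows of class 2 and 156 of 156 of class 3 were in all FLAG-PUS7 libraries, against 40 of 217 of class 1.

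Few alanine rows separated the cell lines. Ala-AGC-chr6-97 was detected in both H9 FLAG-PUS7 libraries and in 0 of the 3 of 293T, and it was the 1 alanine row among 5 rows of the table with that pattern. The opposite pattern, all 3 FLAG-PUS7 libraries of 293T and neither of H9, held for 0 alanine rows and 3 rows in all. Ala-AGC-9-1, Ala-AGC-12-1, Ala-AGC-13-1 and Ala-AGC-16-1 were detected in both H9 FLAG-PUS7 libraries and, of the 293T ones, in replicate 1 only. Ala-AGC-12-3 was likewise in both of H9 and, of the 293T ones, in replicate 3 only. In the other direction Ala-AGC-5-1, Ala-AGC-18-1, Ala-AGC-18-2, Ala-AGC-chr6-96 and Ala-TGC-9-1 were detected in all 3 of 293T and in H9 replicate 1 only, and Ala-AGC-3-1 and Ala-AGC-14-1 in all 3 of 293T and in H9 replicate 2 only. All rows named here were of class 1, where rows of other isotypes were also often missing from some FLAG-PUS7 libraries. The partial patterns were not counted over all rows. Differences between lines were not tested for single rows.

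Within a text class the alanine rows could be set beside rows of like width from other isotypes, leaving out rows with an nm or nmt prefix. Because class is not independent of detection, this is not an independent match. In class 1, 67.7%, 58.1% and 48.4% of the 31 alanine rows were detected in the FLAG-PUS7 libraries of 293T and 67.7% and 61.3% in those of H9. Of the 177 other rows of class 1, 43.5%, 40.1% and 33.9% were detected in the same libraries of 293T and 40.7% and 40.1% in those of H9, lower in each of the 5. Although alanine rows of class 1 were detected more often in single libraries, 6 of 31 (19.4%) were present in all 5. Of all 217 other rows of the class, prefixed rows included, 40 (18.4%) were present in all 5. In 293T FLAG-PUS7 replicate 1, 77 other rows were detected with or without the prefixed rows. The 40 therefore all lie among the 177, where they make up a larger share than the 6 of 31. In the knockout libraries 0 of the 31 were detected, and 1.69% or fewer of the other class 1 rows.

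In classes 2 and 3 each of the 19 alanine rows was seen in every FLAG-PUS7 library, and the knockout libraries differed. Nearly all other rows of these classes were also in every FLAG-PUS7 library, so this is not particular to alanine. Of the 9 alanine rows of class 2, 1 was detected in 293T knockout replicate 1 and 0 in the other knockout libraries. The 120 other rows of class 2 reached 19.2%, 15.8% and 9.17% in the 293T knockout and 35.8% in H9 knockout replicate 2. As a result 8 of the 9 alanine rows (88.9%) were in no knockout library. The share was 49.6% of the other class 2 rows present in all FLAG-PUS7 libraries, prefixed rows included. Of the 10 alanine rows of class 3, 9, 3 and 0 were detected in the 293T knockout libraries and 0 and 2 in those of H9. For the 156 other rows of class 3 the shares were 71.8%, 36.5% and 37.2% in the 293T knockout, and 0% and 69.9% in the H9 knockout. The share of class 3 rows in no knockout library was 1 of 10 (10%) for alanine, beside 10.9% for the others, and the single alanine row was Ala-TGC-3-1. The class 4 row, Ala-CGC-2-1, was detected in 293T knockout replicate 1.

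**Figure D3:**
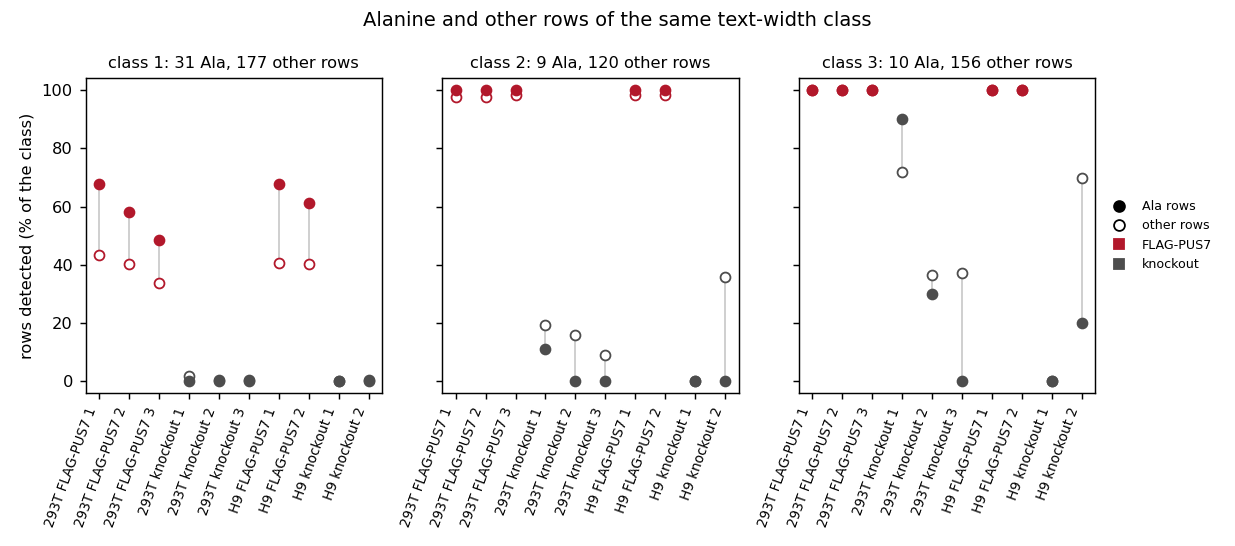
Share of rows detected (percent) in each of the 10 libraries for alanine rows (filled points) and other rows of the same text-width class (open points), with a panel for each of classes 1, 2 and 3 and red for FLAG-PUS7. In class 3 the alanine points reach 90% in 293T knockout replicate 1, above the other rows at 71.8%, and 20% in H9 knockout replicate 2, below the other rows at 69.9%.

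The position of alanine among the 13 isotypes with at least 5 rows of class 3 changed from one knockout library to the next. In 293T knockout replicate 1, 9 isotypes had a lower share of class 3 rows detected than alanine. In replicate 2 alanine lay above 6 isotypes, and in replicate 3 all 12 others had a higher share. In H9 knockout replicate 2, alanine at 20% lay above only threonine and tyrosine, both at 0%, while glutamate, leucine and serine stood at 100%. The rank of alanine within the knockout libraries therefore rests on which library is read, and no test was made of it.

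**Figure D4:**
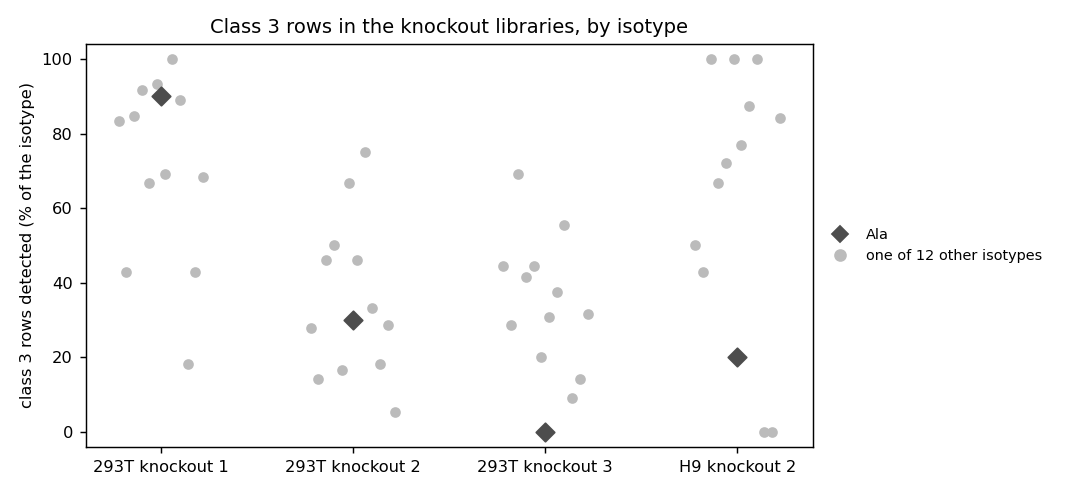
Share of class 3 rows detected (percent of the rows of an isotype) in the 4 knockout libraries with any detected row, with a diamond for alanine and a grey point for each of the 12 other isotypes. Alanine is at 90%, 30% and 0% in the 3 libraries of 293T and at 20% in that of H9.

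By symbol, 31 alanine rows matched a tRNA gene and 2 a tRNA pseudogene in RefSeq on GRCh38.p14, and 18 had no match. The genes were 18 of AGC, 5 of CGC and 8 of TGC. Of the 31, 24 lie on chromosome 6. The largest group, 15 genes between chr6:28607156 and 28863756, held 13 genes detected in all FLAG-PUS7 libraries, 7 detected in a knockout library and 10 of text class 2 to 4. A second group of 6 genes, chr6:26553503 to 26730606, held 2 genes detected in all FLAG-PUS7 libraries, 1 detected in a knockout library and 2 of class 2 to 4. These 2 were Ala-CGC-1-1 (chr6:26553503-26553574) and Ala-AGC-11-1 (chr6:26571864-26571936), while Ala-AGC-9-1, 10-1, 12-1 and 14-1 of the same group were all of class 1. Of the 2 genes further along the chromosome, Ala-AGC-13-2 (chr6:57838350-57838422) was detected in all FLAG-PUS7 libraries and Ala-AGC-12-3 (chr6:57856401-57856473) in 3 of 5. Location was not tested against detection, since width class differs between the groups as well.

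Restricted to the 31 tRNA genes, 93.5%, 87.1% and 90.3% were detected in the FLAG-PUS7 libraries of 293T, against 35.5%, 9.68% and 0% in the knockout. In H9 the shares were 90.3% and 93.5% with FLAG-PUS7, against 0% and 6.45% in the knockout. The 369 other tRNA genes reached 97.6% to 98.1% in FLAG-PUS7 libraries, against 33.1% to 55.8% in the 293T knockout libraries and 0% and 56.4% in those of H9. Weighted equally over the lines and not matched for text class, the FLAG-PUS7 share was higher by 82.0 points for the alanine genes and by 63.2 points for the other genes. Without H9 knockout replicate 1 these values were 80.4 and 49.1 points. The 18 rows without a match included 13 of the 20 rows present in some FLAG-PUS7 libraries and 3 of the 5 present in none.

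The genes were 71 to 73 bases long. All 10 genes of 73 bases were of AGC, and 7 of them were of class 1. The 20 genes of 72 bases included 10 of class 3, and the single gene of 71 bases was Ala-TGC-7-1 (chr6:28802800-28802870). Of the genes detected in a knockout library, 10 had 72 bases and 1, Ala-AGC-8-1 (chr2:27051214-27051286), had 73.

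Copies that share a number have the same mature sequence, and how the authors divided reads among them is not stated, so values of such copies are uncertain. For Ala-TGC-3-1 (chr5:181206868-181206939) and Ala-TGC-3-2 (chr12:124921755-124921826) the level numbers in the 5 FLAG-PUS7 libraries lay 1 to 8 levels apart. The 44 other pairs of class 3 alanine rows had a median gap of 117 to 135 levels in a library, though the nearest of them lay 1 to 10 apart. The copies Ala-AGC-8-1 and Ala-AGC-8-2 lay 1 to 13 levels apart. The 35 other pairs of class 2 alanine rows had a median gap of 23 to 178, and the nearest of them lay 1 to 9 apart. Near levels mean only that the original text values begin alike. Within both pairs, 1 copy was in no knockout library (Ala-TGC-3-1 and Ala-AGC-8-2) and the other was in at least 1 (Ala-TGC-3-2 and Ala-AGC-8-1).

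The class 1 copies matched each other less evenly. Ala-AGC-18-1 and Ala-AGC-18-2 were detected in the same 4 FLAG-PUS7 libraries, and Ala-AGC-2-1 (chr6:28838444-28838515) and Ala-AGC-2-2 (chr6:28863685-28863756) in all 5. The levels of the 2 copies of Ala-AGC-2 lay 0 to 307 apart. Ala-AGC-9-1 and Ala-AGC-9-2 had the same state in 4 of 5 FLAG-PUS7 libraries, and Ala-AGC-13-1 and Ala-AGC-13-2 in 3 of 5. Each pair among Ala-AGC-12-1, 12-2 and 12-3 also had the same state in 3 of 5.

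Peak lists, a second readout that the choice of rows did not use, were read for the 5 FLAG-PUS7 libraries, and no peaks of a knockout library were analysed here. Each list gives a signal and a p-value per peak as the authors computed them, with no scaling for depth stated, and the lists held 120, 85 and 39 peaks in 293T and 1605 and 199 in H9. The name the authors gave the lists could mean that tRNA reads were set aside in making them, which is not stated elsewhere and could not be settled. Of the 33 alanine tRNA genes of RefSeq, 5 were overlapped by a peak in at least 1 list. TRA-CGC1-1 (row Ala-CGC-1-1) was the gene with a peak in all 5 lists. In 293T its peaks had a signal of 22, 58 and 30, and in H9 of 9.5 and 9. These peaks started at chr6:26553401 and covered the whole gene. They ranked 56 of 120, 23 of 85 and 25 of 39 in 293T and 225 of 1605 and 116 of 199 in H9. Set beside the median peak signal of each list, 20, 28 and 40 in 293T and 3 and 11 in H9, the peak lay above the median in 3 lists and below it in 2.

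The gene of Ala-AGC-8-2, TRA-AGC8-2, had a peak in 4 lists. The signal there was 18 in 293T replicate 1, 37 in 293T replicate 2, 16 in H9 replicate 1 and 7 in H9 replicate 2, while the list of 293T replicate 3, the shortest, had none. The peak covered 61 of the 73 bases of the gene. The other 3 genes had a peak in H9 replicate 1 only, the list with 1605 peaks. TRA-TGC2-1 (chr6:28643445-28643516) had a signal of 8 there and TRA-AGC11-1 a signal of 6. TRA-AGC9-1 (chr6:26730534-26730606) had a signal of 3, with 6 of its 73 bases under the peak and an authors' p-value of 0.0301. Peaks also lay within 200 bases of 3 further CGC genes without touching them: near TRA-CGC2-1 (chr6:28673836-28673907) in 293T replicate 1 and H9 replicate 1, with signals of 13 and 15, and near TRA-CGC3-1 and TRA-CGC4-1 in H9 replicate 1, with signals of 4 and 5.

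**Figure D5:**
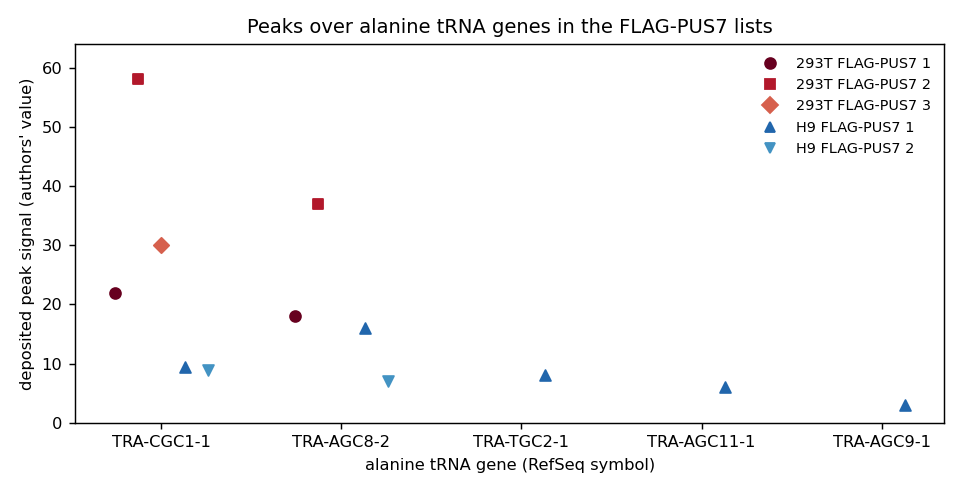
Deposited peak signal (the authors' value) at the 5 alanine tRNA genes overlapped by a peak, with a symbol per FLAG-PUS7 library and no symbol where a list has no peak. TRA-CGC1-1 has a symbol from all 5 libraries, between 9 and 58, and 3 genes have one from H9 replicate 1 only, between 3 and 8.

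Peaks covered alanine genes less often than other tRNA genes in each of the 5 lists. The shares were 6.06%, 6.06% and 3.03% of the 33 alanine genes in 293T and 15.2% and 6.06% in H9. Of the 432 other tRNA genes, 11.1%, 9.03% and 3.94% had a peak in 293T and 25.2% and 12.3% in H9. The alanine peaks held 0.303% to 1.32% of the summed signal of a list. This difference was not tested, and with 1 or 2 alanine genes a list in 4 of the 5 lists it rests on few genes. Of the 15 rows of the first set, Ala-AGC-8-2 and Ala-AGC-11-1 were also under a peak, while TRA-CGC1-1, the gene with a peak in every list, was detected in 293T knockout replicate 1.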

How the data were processed

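Detection of tRNA rows was compared between 5 FLAG-PUS7 and 5 knockout iCLIP libraries, grouped by the labels. Per the submitters' processing notes, Bowtie, SAMtools, bedtools and the build hg38 were used, with no role given; the peak caller and the rule for reads that match several copies are not given in the sources used here. The tRNA tables the authors deposited hold other values than counts: every whole number from 1 to the maximum occurs, with 335 to 414 distinct levels in FLAG-PUS7 and 6 to 102 in knockout libraries. The text-width classes were taken from the levels of H9 knockout replicate 1, which was assumed to hold no reads. The lowest level of each class was read as no reads, and any higher level as detected. The deposited peak lists give for each peak a signal, a p-value and an unnamed value on a natural log scale, which was not used, as the authors computed them.

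The share of rows detected was tested for the 57 families and 513 rows detected at least once (Python 3.11.15, pandas 2.3.3, numpy 2.4.6, scipy 1.17.1), by the exact permutation test with both lines weighted equally and Benjamini-Hochberg adjustment at 0.05. The code was tested on simulated tables. Because each tRNA table is a set of level codes, the depth and counting error of a library are unknown, and no count model was run. A share of tRNA sequences with given letters was planned and is not analysed here. Same-numbered FLAG-PUS7 and knockout libraries of 293T did not deviate together over 513 rows (r = -0.0358, 0.0377 and -0.0121 for replicates 1, 2 and 3). In H9, with 2 libraries per group, same-number and other-number values mirror each other (0.0450 and -0.0450), so the check cannot decide pairing there. Replicate numbers were not taken to pair samples, and a block by number is given as an alternative. Members, lists, tests and the rule for named rows (every alanine family, every row by its pattern, every alanine gene with a peak) were chosen with earlier results of these data known. Alternatives were leaving out each library, RefSeq genes only, a higher detection level, other weights, subtraction of the other rows, a replicate block and other peak rules.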

Additional observations from a re-analysis of the deposited data

How the results depend on the processing

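The 3 families kept their direction under every alternative run. The adjusted p stayed under 0.05 in 14 of 16 alternatives for Ala-AGC and Ala-CGC and in 13 of 16 for Ala-TGC. Of these 16, 10 repeat the main test with a single library left out. The combination chosen after seeing the data, given below, is also among them. With the replicate number as a block (replicate block), the differences were 71.2, 90 and 67.5 points for Ala-AGC, Ala-CGC and Ala-TGC, with p = 0.0625 in the exact permutation test, the smallest its 32 sign flips can give, and an adjusted p of 0.0810. After subtraction of the share of all other rows they were 20.0, 38.0 and 15.4 points, and none passed. With the empty H9 knockout library also left out, an alternative chosen after seeing the data, Ala-AGC and Ala-CGC passed at 29.7 and 47.3 points and Ala-TGC, at 19.7, did not. Leaving out each library in turn gave 69.0 to 73.3 points for Ala-AGC, 85 to 100 for Ala-CGC and 60 to 75 for Ala-TGC, with adjusted p-values of 0.0211 to 0.0463. The H9 minus 293T gaps then ran from 4.76 to 13.3, 0 to 30 and 0 to 30 points, and none passed. The count of alanine rows in all FLAG-PUS7 and no knockout libraries ran from 15 to 22. Single rows called stayed at 0, where the main test could call none. The difference in the share of all alanine rows was 82.0 points over RefSeq tRNA genes only, against 70.9 over all 51. Genes with a peak numbered 5, and 3 where the whole gene had to lie inside the peak. A peak within 200 bases, also chosen after seeing the data, gave 8. Unknown depth and the loss of read counts limit every value to detection. In addition, 1 knockout library of H9 was read as empty by construction, and 293T knockout replicate 1 holds 11 of the 16 knockout detections.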
